A study of Rattus norvegicus with 12 samples.

Results

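Oxidative phosphorylation genes were taken as all probes whose gene name in the array files begins with the letters of a nuclear-encoded subunit of complexes I to V or of cytochrome c (Nduf a, b, c, s or v, Sdha to Sdhd, Uqcr, Cyc1, Cycs, Cox with 4, 5, 6, 7 or 8, and Atp5). These were 115 of 30367 probes and 91 of 22079 named genes. Of the 91 genes 79 encode subunits, 36 of complex I, 4 of complex II, 8 of complex III, 15 of complex IV, 15 of complex V and cytochrome c itself. Another 4 are copies or a pseudogene of subunits (Atp5hl1, Ndufa10l1, Ndufb4l1, Cox6c-ps1), and 8 match by name but encode other proteins, among them assembly factors. The choice used names and no measured value. A gene entered the test if, in some group, its signal cleared the background by a wide margin on each of the 3 arrays, and 89 of the 91 did; Cox8c, a testis isoform, and the assembly factor Ndufaf2 did not. All 89 were above background on all 12 arrays, so none entered through 1 group alone. No probe named for a subunit encoded in mitochondrial DNA was found, and those subunits were not analysed here.

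The cells were ventricular cardiomyocytes of newborn rats, kept for 24 h with 10% serum on flexible culture plates coated with collagen I and then put under pulsatile biaxial stretch of 20% elongation for 2, 6 or 24 h, against unstretched cells on the same kind of plate. Each of the 4 groups had 3 cultures that the submitters call biological replicates, each read on 1 single-colour Agilent array; no source used here says whether they came from separate cell isolations, so errors and p-values measure the spread between cultures. The same 3 unstretched cultures are the reference for all 3 times, and the labels give no culture time for them, so stretch time and time in culture cannot be told apart. All 15 cardiomyocyte marker genes looked up were above background.

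The respiratory chain passes electrons from NADH (complex I) and succinate (complex II) through ubiquinone to complex III, from there on cytochrome c to complex IV and then to oxygen. Complexes I, III and IV pump protons out of the mitochondrial matrix, and complex V, the ATP synthase, makes ATP as they flow back. The heart depends on this pathway for most of its ATP, and part of complex IV exists in a heart and muscle form and a form found in other tissues.

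The promoters shown are those of the subunit with the most negative change at 24 h in each complex, and of cytochrome c, because the results below turn on these genes. Each runs from 250 bases before to 50 bases after the gene's start in RefSeq on rat build GRCr8, 300 bases in all. They lie at chr4:161374121-161374420 (minus strand) for Ndufa9, chr1:30764303-30764602 (plus) for Sdha, chr1:184598990-184599289 (plus) for Uqcrc2, chr1:205408224-205408523 (minus) for Cox8b, chr7:1099808-1100107 (plus) for Atp5b, now named Atp5f1b, and chr4:80984718-80985017 (minus) for Cycs. Capitals mark matches on either strand to the core motifs of 4 factors known to regulate nuclear genes of the respiratory chain.
Ndufa9: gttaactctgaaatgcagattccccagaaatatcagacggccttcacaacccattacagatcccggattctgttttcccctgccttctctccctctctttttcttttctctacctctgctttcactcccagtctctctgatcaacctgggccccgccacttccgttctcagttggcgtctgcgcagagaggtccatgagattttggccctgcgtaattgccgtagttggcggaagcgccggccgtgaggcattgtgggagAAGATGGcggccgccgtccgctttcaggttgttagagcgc
Sdha: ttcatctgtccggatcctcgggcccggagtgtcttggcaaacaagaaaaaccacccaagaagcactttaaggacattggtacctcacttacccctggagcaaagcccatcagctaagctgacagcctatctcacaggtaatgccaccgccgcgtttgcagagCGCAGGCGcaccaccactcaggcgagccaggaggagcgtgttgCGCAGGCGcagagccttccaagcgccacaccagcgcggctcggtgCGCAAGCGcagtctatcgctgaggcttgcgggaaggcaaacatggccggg
Uqcrc2: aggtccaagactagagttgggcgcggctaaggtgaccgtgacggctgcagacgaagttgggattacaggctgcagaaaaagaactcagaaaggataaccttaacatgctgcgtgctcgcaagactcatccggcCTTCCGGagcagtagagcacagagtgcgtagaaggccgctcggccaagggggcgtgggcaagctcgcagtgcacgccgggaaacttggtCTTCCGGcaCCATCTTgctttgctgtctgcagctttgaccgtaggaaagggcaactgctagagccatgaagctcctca
Cox8b: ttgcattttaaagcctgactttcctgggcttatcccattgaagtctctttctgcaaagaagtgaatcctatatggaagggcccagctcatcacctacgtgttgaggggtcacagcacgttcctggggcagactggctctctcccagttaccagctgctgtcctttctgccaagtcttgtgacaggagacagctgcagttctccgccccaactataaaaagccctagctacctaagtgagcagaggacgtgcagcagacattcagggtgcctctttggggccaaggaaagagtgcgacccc
Atp5b: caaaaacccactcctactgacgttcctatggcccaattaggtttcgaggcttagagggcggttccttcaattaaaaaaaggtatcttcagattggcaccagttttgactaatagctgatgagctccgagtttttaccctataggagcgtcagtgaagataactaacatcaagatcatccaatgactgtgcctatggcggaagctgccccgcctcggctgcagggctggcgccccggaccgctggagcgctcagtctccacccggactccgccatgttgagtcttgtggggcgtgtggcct
Cycs: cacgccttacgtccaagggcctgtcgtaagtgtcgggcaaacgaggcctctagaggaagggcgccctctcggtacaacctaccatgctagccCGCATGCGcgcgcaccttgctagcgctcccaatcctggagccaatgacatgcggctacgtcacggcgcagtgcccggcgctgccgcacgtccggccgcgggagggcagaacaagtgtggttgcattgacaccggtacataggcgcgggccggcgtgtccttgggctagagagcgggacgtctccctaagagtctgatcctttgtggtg

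The motifs searched were CGCANGCG for NRF1, CCGGAAG for the ETS factor GABPA, AAGGTCA for oestrogen-related receptors and AAGATGG for YY1, with no overlap among the matches in the promoters shown. The Sdha promoter held 3 NRF1 matches, the Uqcrc2 promoter 2 ETS matches and 1 YY1 match, and the Ndufa9 promoter 1 YY1 match. The Cycs promoter held 1 NRF1 match, and the windows of Cox8b and Atp5b held none of these letters. Over the 27457 RefSeq promoters, 8.23% held the NRF1 motif, 9.22% the ETS motif, 4.37% the oestrogen-related receptor motif and 7.3% the YY1 motif. Among the 69 subunits with a RefSeq promoter the shares were 33.3%, 29.0%, 15.9% and 24.6% in the same order. The 27 subunits lower at 24 h held them in 29.6%, 22.2%, 14.8% and 25.9%, and the 39 uncalled subunits in 35.9%, 35.9%, 17.9% and 25.6%. The median number of CpG in 300 bases was 20 in the lower subunits and 20 in the uncalled ones, against 7 over all promoters. These shares are descriptions, with no test.

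Levels are given as log2 of the processed signal relative to the 75th percentile of the array, so that 0 is the level of a probe at that percentile. The arrays had 75th percentiles of 1138 to 1672 in linear intensity and 64.7% to 70.6% of spots well above background. A change is called at an adjusted p below 0.05 by limma's moderated test with Benjamini-Hochberg adjustment over 14376 genes. On this scale the all-gene median change was -0.01 for 2 h, -0.05 for 6 h and -0.08 for 24 h. It was 0.03, 0.04 and 0.11 when arrays were scaled by their median, and 0.14, 0.40 and 0.35 when scaled by the spike-in spots, so "higher" and "lower" below are relative to the 75th percentile of the array. Slide 1 carried all controls, all 2 h cultures and 2 of the 6 h cultures; slide 2 carried the last 6 h culture and all 24 h cultures. Only the 6 h group therefore ties 24 h to control across slides.

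On this scale few subunit transcripts differed from control through 6 h; with spike-in scaling 63 of the 89 members, 55 of them subunits, were called at 6 h, all higher, and with array median scaling 7 members were. At 24 h 28 of 78 were lower and 2 higher. That split turned with array median scaling (22 members called higher, 6 lower) and spike-in scaling (10 higher, 0 lower). Both scalings moved all genes too. With spike-in scaling the median change at 6 h was 0.40 for all genes and 0.46 for the members. At 24 h it was 0.35 and 0.30, and with array median scaling 0.115 and 0.0687. Shares of all genes called under these scalings are not given here, so their counts are not read as particular to the members. On the scale named first, 0 of 78 subunits were called at 2 h (7 at an unadjusted p under 0.05, limma). Of all 89 members 1 was called there, higher, against 9.34% of all genes called and 3.1% called higher. At 6 h 1 subunit and 4 members were called, 3 higher and 1 lower, against 16.9% of all genes, 4.88% higher and 12% lower. At 24 h 37 members were called (41.6%), 5 higher and 32 lower, against 47.9% of all genes, that is 16% higher and 31.9% lower. The share called at 24 h was thus near the background, and nothing is read from it about these genes as a group. The 3 stretched and 3 control values did not overlap for 61 members at 24 h, where 58.8% of all genes did not overlap.

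The median of the 89 members was 0.07 at 2 h, 0.00 at 6 h and -0.13 at 24 h. Relative to the median of all genes it stood at 0.07, 0.06 and -0.05. The value at 24 h turned to 0.03 with normexp, 0.02 without a filter and 0.00 with slide as a block, and with quantile normalization the values at 2 h and 6 h were 0.01 each. Per array, the median deviation of the members from the control mean was -0.12, -0.13 and -0.12 at 24 h, against 0.03, 0.00 and -0.02 in the controls, and these groups did not overlap. The same median over all genes did not overlap either, at -0.07, -0.10 and -0.07 against 0.0018, 1e-04 and -0.0025. The 24 h arrays lay on slide 2 and the controls on slide 1. For the members the 3 arrays of 2 h gave 0.14, -0.01 and 0.05, which overlapped the controls, and those of 6 h 0.02, 0.02 and -0.02. The median standard error of a member's change was 0.05, against 0.07 for all genes, so that the members were measured at least as precisely as the typical gene. They were also brighter, with a median level at percentile 95.7 of the genes tested and 84 of 89 above the median level. Offsets from the all-gene median therefore compare bright probes with mostly dimmer ones, and the part of brightness in them was not tested.

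**Figure D1:**
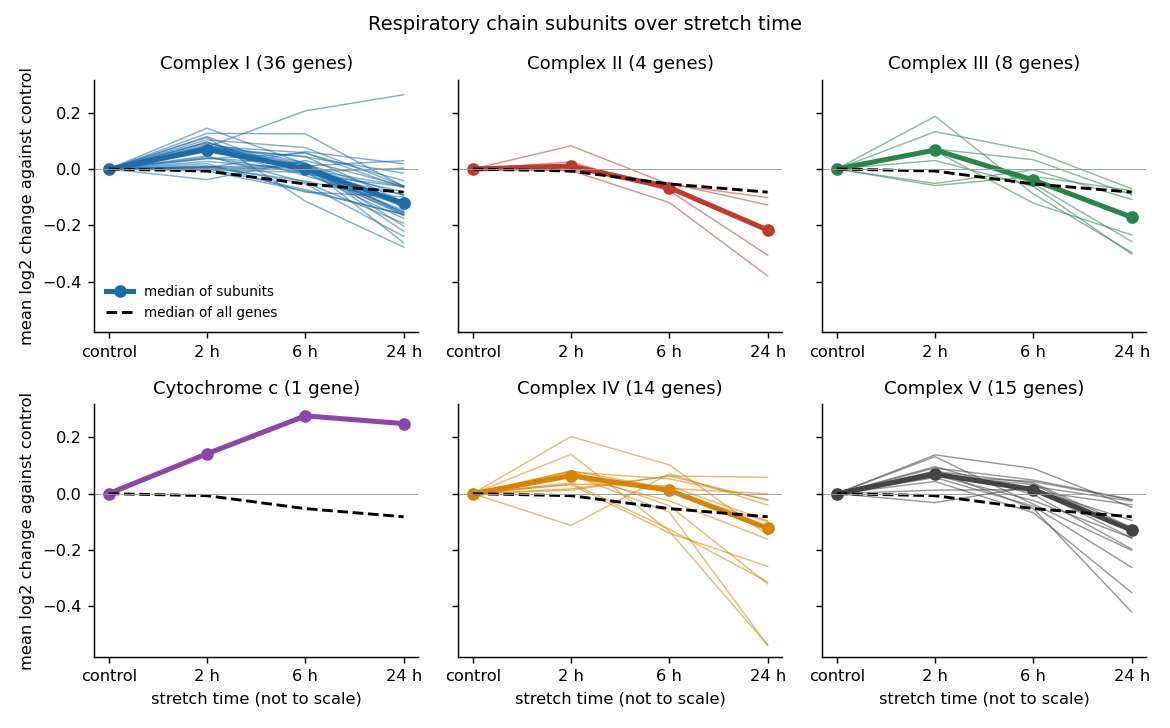
Mean log2 change against control at each stretch time for the subunits of each complex (thin lines), their median (thick line) and the median of all genes (dashed), on the scale relative to the 75th percentile. Medians lay between 0.01 and 0.07 at 2 h for complexes I to V and between -0.22 and -0.12 at 24 h, where scaling by array medians or spike-in spots puts the median of all members above 0; cytochrome c alone lay at 0.28 at 6 h and 0.25 at 24 h.

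Complex II, which also serves the citric acid cycle, had the lowest median of the 5 complexes at 24 h (-0.22, 2 of 4 called, both lower). Sdha, the flavoprotein that oxidises succinate, read 3.78, 3.70 and 3.81 at 24 h, against 4.10, 4.20 and 4.14 in control cultures. All 3 stretched cultures lay below all 3 controls, a change of -0.38 ± 0.05 (SE, n = 3 per group, adjusted p = 8.49e-05). Its 2 h values (4.13, 4.18 and 4.11) lay within the control range, and its 6 h values (4.03, 4.03 and 4.02) lay just below it without a call (adjusted p = 0.0972). Sdhd, a membrane anchor of the complex, read 3.79, 3.80 and 3.83 at 24 h, against 4.14, 4.12 and 4.08 in control cultures, a change of -0.31 ± 0.04. Sdhb, the iron-sulphur subunit, stood at -0.10 (adjusted p = 0.151) and the anchor Sdhc at -0.13 (adjusted p = 0.122). Sdha turned to 0.05 and lost its call with spike-in scaling, and kept both direction and call with slide as a block (-0.37, adjusted p = 0.0207), as did Sdhd (-0.31, adjusted p = 0.0265). With array median scaling Sdha kept its call (-0.18, adjusted p = 0.00583), whereas the call of Sdhd ended with that scaling and with spike-in scaling.

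In complex I, the entry point for NADH, 1 of 36 subunits was higher and 11 were lower at 24 h, against 16% and 31.9% of all genes, with a median of -0.12. Among the 7 core subunits, which carry the redox centres, 4 were lower, and among the 29 accessory subunits, which surround them, 7 were lower and 1 higher; the medians were -0.19 and -0.10, and this difference was not tested. Ndufs1, the largest core subunit, which binds iron-sulphur clusters, read 2.72, 2.64 and 2.64 at 24 h, against 2.89, 2.94 and 2.95 in control cultures, a change of -0.26 ± 0.05 (adjusted p = 0.00157). Ndufa9, an accessory subunit near the ubiquinone site, read 2.67, 2.72 and 2.68 at 24 h, against 2.99, 2.96 and 2.95 in control cultures (-0.28 ± 0.04, adjusted p = 3.52e-04). It was also the 1 member that differed between 6 h and 2 h on this scale (-0.23, adjusted p = 0.0114), in a comparison with 10.6% of all genes called and 6.87% called lower, and kept that call with slide as a block (-0.20, adjusted p = 0.0444), whereas on slide 1 alone 0 members were called there (8 at an unadjusted p under 0.05, limma). At 24 h both calls against control ended with slide as a block, Ndufa9 at -0.20 (adjusted p = 0.0982) and Ndufs1 at -0.20 (adjusted p = 0.174), and with array median scaling. The accessory subunit Ndufs4 was -0.16 on its brighter probe and -0.59 on the other. Ndufb4 and Ndufv3 were uncalled on their brightest probes (-0.15 and -0.12). A dimmer probe gave -0.20 for Ndufb4 (adjusted p = 0.00642) and -0.18 for Ndufv3 (adjusted p = 0.0209) in a fit over probes. In that fit 44.6% of all probes were called, and another Ndufv3 probe stood at 0.01.

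The higher gene of complex I was Ndufa7, a small accessory subunit, which read -2.39, -2.38 and -2.41 at 24 h, against -2.57, -2.67 and -2.75 in control cultures (0.26 ± 0.09, adjusted p = 0.0362). The call ended without control replicate 2 or 3 or without any 1 of the 24 h replicates (adjusted p 0.0702 to 0.119). With slide as a block the change of Ndufa7 was 0.08 (adjusted p = 0.795).

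**Figure D2:**
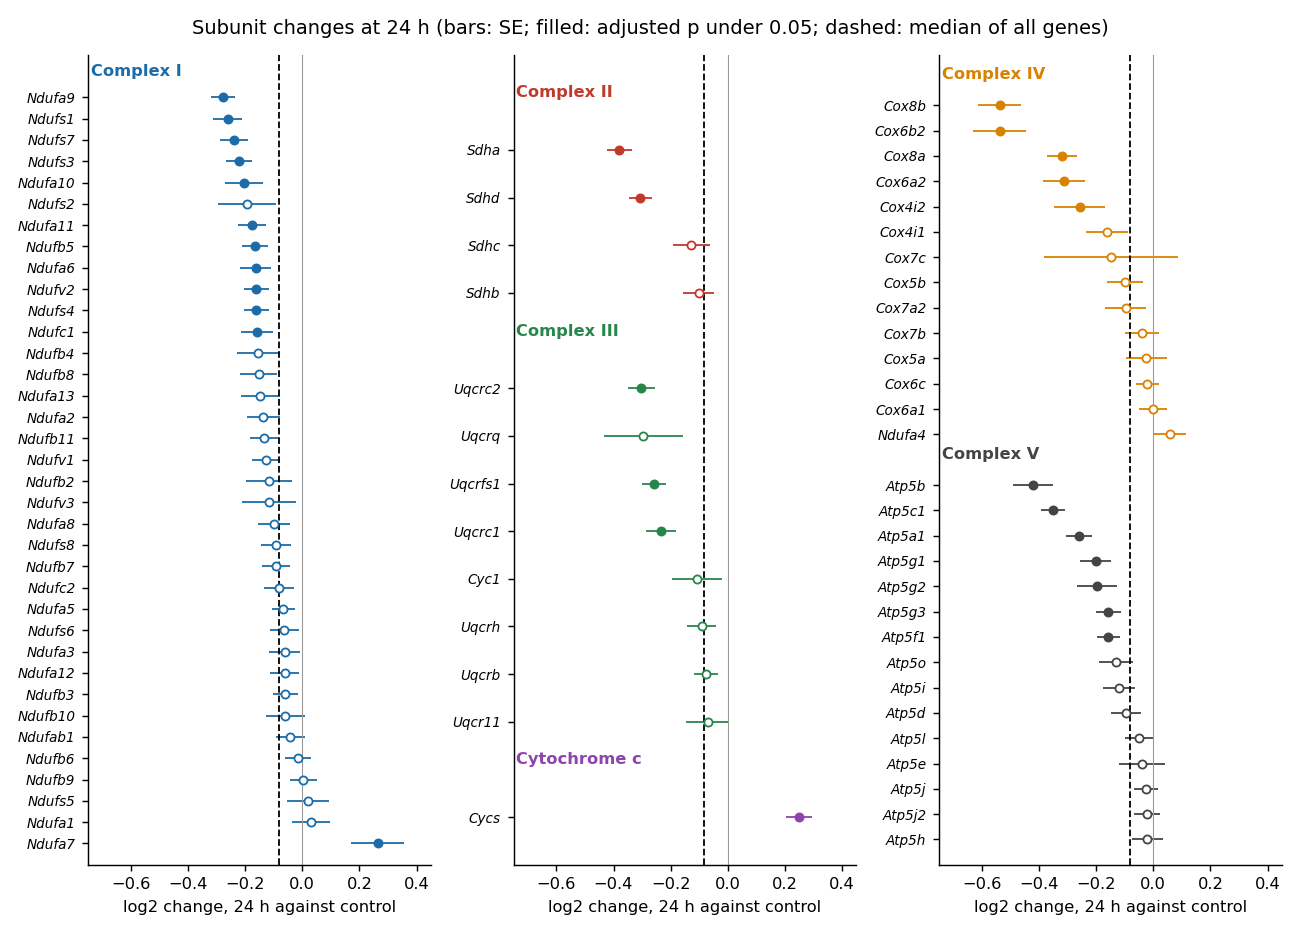
Log2 change at 24 h against control for each of 78 subunits on the scale relative to the 75th percentile, with SE bars, filled where called, and the median of all genes (-0.08) as a dashed line. Called subunits run from -0.54 for Cox8b to 0.26 for Ndufa7; with array median scaling Atp5b, Atp5c1, Cox6b2, Cox8b and Sdha kept a negative call and with spike-in scaling no subunit did.

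Complex III, which hands electrons to cytochrome c, had a median of -0.17 and, against 31.9% of all genes, 3 of 8 subunits lower. They were the core proteins Uqcrc1 (-0.23, adjusted p = 0.0045) and Uqcrc2 (-0.30, adjusted p = 4.22e-04) and the Rieske iron-sulphur protein Uqcrfs1 (-0.26, adjusted p = 6.59e-04). Uqcrc2 read 3.23, 3.21 and 3.12 at 24 h, against 3.52, 3.46 and 3.49 in control cultures, without overlap. All 3 calls ended with slide as a block, Uqcrc1 at -0.20 (adjusted p = 0.217), Uqcrc2 at -0.27 (adjusted p = 0.0668) and Uqcrfs1 at -0.19 (adjusted p = 0.139), and with array median scaling. Cyc1, the haem-bearing cytochrome c1, stood at -0.11 with an adjusted p of 0.334. The small subunit Uqcrb gave opposite signs on its 2 probes, -0.08 on the brighter one and 0.235 on the other (adjusted p = 0.046 in a fit over probes, where 44.6% of all probes were called), so that no direction is given for it. Uqcr11, uncalled on its brightest probe (-0.07), gave -0.18 and -0.17 on its other probes (adjusted p = 0.0223 and 0.0373 in the fit over probes).

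Cytochrome c, the mobile carrier between complexes III and IV that also triggers apoptosis once it leaves mitochondria, ran the other way. Cycs read 4.05, 4.07 and 4.11 at 2 h, 4.26, 4.18 and 4.19 at 6 h and 4.16, 4.25 and 4.14 at 24 h, against 3.96, 3.95 and 3.90 in control cultures. The stretched cultures lay above all controls at each time. The change was 0.14 ± 0.05 at 2 h (adjusted p = 0.0814), 0.28 ± 0.05 at 6 h (adjusted p = 0.00353) and 0.25 ± 0.05 at 24 h (adjusted p = 0.00128). It was positive in all 13 settings run at 24 h apart from leaving out arrays, between 0.19 and 0.68, and with slide as a block it was 0.29 at both 6 h (adjusted p = 0.0112) and 24 h (adjusted p = 0.0545). A second, dimmer probe gave 0.12 at 24 h (adjusted p = 0.0993 in the fit over probes). Relative to Cyc1 on the same array, Cycs was 0.36 ± 0.01 higher at 24 h and 0.28 ± 0.04 at 6 h (SD, n = 3; exact two-sided permutation p = 0.1 each, the smallest that 3 against 3 allows, 0.24 after adjustment over 12 such comparisons). That difference at 24 h was 0.19 with the series matrix values, where Cyc1 stood at 0.06, and 0.29 with normexp and with the mean of all probes of a gene.

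Complex IV, cytochrome c oxidase, held the 2 subunits with the most negative changes at 24 h. Of 14 tested 5 were lower and none higher, against 31.9% and 16% of all genes, with a median of -0.12. With array medians Cox6a1, Cox6c and Ndufa4 were called higher. Cox8b, the heart and muscle isoform of the smallest subunit, read 4.57, 4.54 and 4.39 at 24 h, against 5.123, 4.988 and 4.997 in control cultures, and no stretched culture reached the lowest control. The change was -0.54 ± 0.08 (adjusted p = 2.61e-04), or 0.69-fold. Cox6b2, a testis isoform in most descriptions, read 0.51, 0.16 and 0.29 at 24 h, against 0.86, 0.89 and 0.82 in control cultures (-0.54 ± 0.09, adjusted p = 9.09e-04). Both stayed negative under every scaling tried, at -0.11 each with spike-in scaling, where neither was called, and relative to the median of all genes Cox8b stood between -0.51 and -0.39 over 13 settings; with slide as a block Cox8b kept its call (-0.52, adjusted p = 0.0415) and Cox6b2 did not (-0.49, adjusted p = 0.0916).

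Isoforms of complex IV were compared as log2 ratios within each array, which scaling by 1 factor per array (75th percentile, array median or spike-in spots) leaves as they are. Cox6a2, the heart and muscle form, read 6.53, 6.51 and 6.50 at 24 h, against 6.86, 6.81 and 6.81 in control cultures (-0.31 ± 0.07, adjusted p = 0.00537), while Cox6a1, the form of other tissues, read 6.51, 6.44 and 6.45, against 6.49, 6.46 and 6.45 (-0.00 ± 0.05, adjusted p = 0.998). The Cox6a2 to Cox6a1 log2 ratio was lower by 0.31 in the 24 h cultures, with deviations from the control mean of -0.34 to -0.29 at 24 h, against -0.01 to 0.01 in controls. With other processing the difference at 24 h was -0.22 with normexp, -0.23 with the series matrix values, -0.29 with quantile normalization and -0.38 with slide as a block, where Cox6a2 itself lost its call (-0.35, adjusted p = 0.125). At 6 h the ratio was 0.14 lower and at 2 h 0.04 lower. The muscle form Cox8b was 0.22 lower at 24 h relative to Cox8a, which itself fell by 0.32 (adjusted p = 6.57e-04) and missed the threshold with slide as a block (-0.33, adjusted p = 0.0545). For both pairs the exact permutation p at 24 h was 0.1, the smallest possible, and 0.24 adjusted. Cox4i2, a form induced by low oxygen in lung, changed by -0.26 (adjusted p = 0.0371) and the common Cox4i1 stood at -0.16 (adjusted p = 0.0973), and their ratio did not separate from the controls (difference -0.10, exact p = 0.2; -0.03 with slide as a block and -0.15 with normexp). The Cox4i2 call ended without control replicate 1 or 2 or 24 h replicate 2 or 3 (adjusted p 0.0658 to 0.128). With array median scaling Cox6a2 and Cox8a stood at -0.12 each and Cox4i2 at -0.06, and none of them was called. Cox7a2 (-0.10, adjusted p = 0.289) and Ndufa4, once assigned to complex I and now counted with complex IV (0.06, adjusted p = 0.428), were not called.

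**Figure D3:**
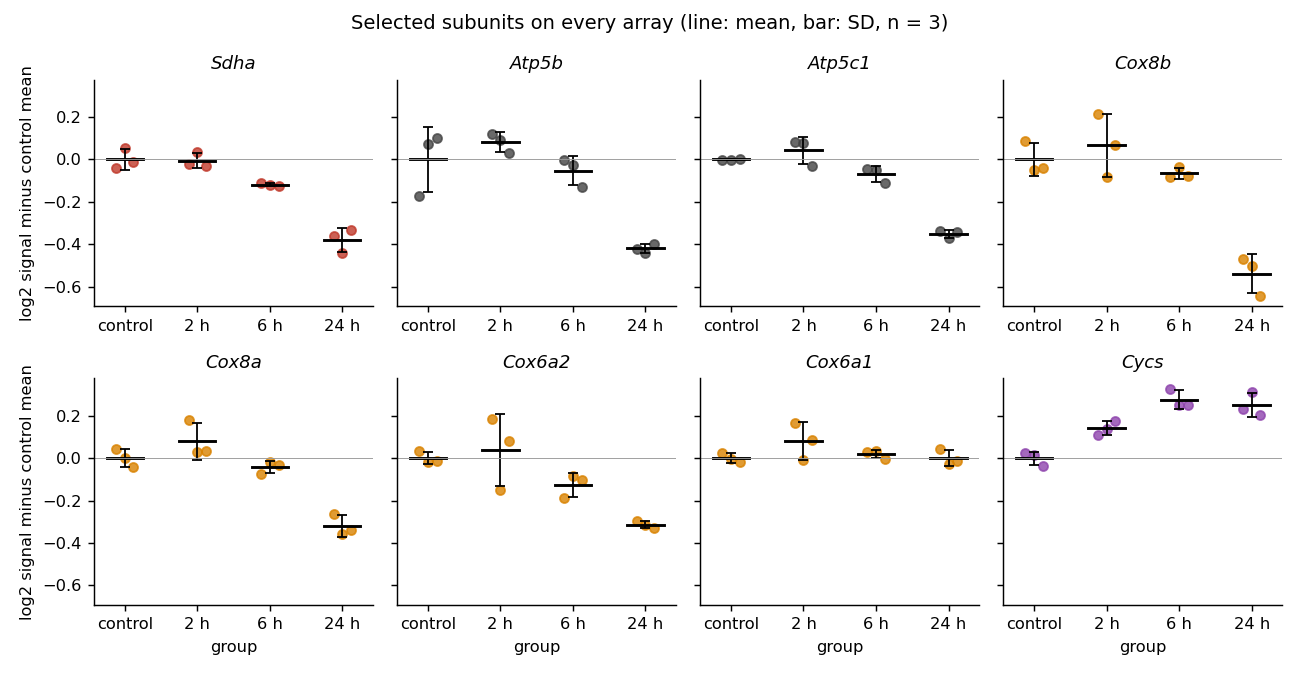
Log2 signal minus the control mean on every array for 8 subunits, relative to the 75th percentile, with group means and SD (n = 3). At 24 h Sdha, Atp5b, Atp5c1, Cox8b, Cox8a and Cox6a2 lie below all controls (above the control mean with spike-in scaling for all of these but Cox8b), Cox6a1 overlaps them and Cycs lies above.

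In complex V, the ATP synthase, 7 of 15 subunits were lower and none higher on this scale, against 31.9% and 16% of all genes, with a median of -0.13. With array medians Atp5h, Atp5j, Atp5j2 and Atp5l were called higher and Atp5b and Atp5c1 lower. The catalytic F1 head had 3 of 5 lower. Atp5b, the beta subunit with the catalytic sites, read 4.21, 4.19 and 4.23 at 24 h, against 4.46, 4.70 and 4.73 in control cultures (-0.42 ± 0.07, adjusted p = 7.41e-04), with a wider spread in the controls than in the stretched cultures. Atp5c1, the gamma subunit that turns within the head, read 3.70, 3.67 and 3.70 at 24 h, against 4.04 in each control culture (-0.35 ± 0.04, adjusted p = 1.12e-04). Atp5a1, the alpha subunit, changed by -0.26 (adjusted p = 9.27e-04). All 3 genes of the proton-carrying c ring, Atp5g1 (-0.20), Atp5g2 (-0.20) and Atp5g3 (-0.16), were lower too. Of 7 subunits in the stalk and the membrane part 1 was lower, Atp5f1 (-0.16), and the median there was -0.05. A second, dimmer probe of Atp5l in that part gave -0.17 (adjusted p = 0.0341 in the fit over probes), against -0.05 on the brighter one. The difference between the parts of complex V was not tested. With slide as a block Atp5c1 kept its call (-0.29, adjusted p = 0.041), whereas Atp5b (-0.30, adjusted p = 0.14) and Atp5a1 (-0.17, adjusted p = 0.193) did not. Nor did Atp5g1 (-0.30, adjusted p = 0.0673), Atp5g2 (-0.08, adjusted p = 0.7), Atp5g3 (-0.13, adjusted p = 0.359) or Atp5f1 (-0.14, adjusted p = 0.274). The calls of Atp5a1, Atp5f1 and the c ring genes also ended with array median scaling.

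Of the 7 tested genes that match by name but encode no subunit, 3 were higher and 3 lower at 24 h. Ndufaf4, a complex I assembly factor, read 0.74, 0.80 and 0.80 at 24 h, against 0.33, 0.35 and 0.24 in control cultures (0.47 ± 0.06, adjusted p = 7.14e-05), and 0.68, 0.64 and 0.54 at 6 h (0.31, adjusted p = 0.00458). All 4 of its probes were positive at 24 h, between 0.26 and 0.47, and it was called at 24 h in all 13 settings run. Ndufaf1, another such factor, was 0.17 higher (adjusted p = 0.0258), and Cox4nb, now named Emc8, a subunit of an endoplasmic reticulum insertase, was higher at 2 h (0.20, adjusted p = 0.0209), 6 h (0.22) and 24 h (0.27). Its 2 h call ended without control replicate 1 or 2 or 2 h replicate 1 or 3 (adjusted p 0.0507 to 0.078). Atp5s and Atp5sl, now named Dmac2l and Dmac2, of which Dmac2 is a complex I assembly factor, were lower at 24 h (-0.30 and -0.36). Atp5s missed the threshold at 24 h with the series matrix values (-0.12, adjusted p = 0.156), quantile normalization (-0.15, adjusted p = 0.135), array medians (-0.10, adjusted p = 0.314), slide as a block (-0.33, adjusted p = 0.159) and spike-in scaling (0.13, adjusted p = 0.561). The 6 h change of Atp5s, -0.29 with an adjusted p of 0.0246, lost its call without control replicate 2 or 3 or without any 1 of the 6 h replicates (adjusted p 0.0506 to 0.0788). Cox7a2l, which joins complexes III and IV into supercomplexes, was 0.21 lower. Of the 4 copies only Ndufa10l1 was called (-0.22), and its probes may not tell it from Ndufa10 (-0.20). With slide as a block the 24 h calls of Ndufaf1 (0.19, adjusted p = 0.246) and Cox4nb (0.27, adjusted p = 0.0665) ended. So did those of Cox7a2l (-0.20, adjusted p = 0.215) and Ndufa10l1 (-0.15, adjusted p = 0.299), which ended with array medians too.

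The 24 h cultures also stood below the earlier stretched cultures. Against 2 h, 53 members were called, where 48.3% of all genes were. Of the 89 members 51 were lower and 2 higher, against 4346 lower and 2593 higher of all 14376 genes. Against 6 h, 24 members were lower at 24 h and none higher, in a comparison with 24.9% of all genes called and 15.2% called lower. Cox8b was 0.47 lower and Cox6b2 0.40 lower at 24 h than at 6 h. On slide 2 alone, with 1 culture of 6 h whose spread was taken from the 24 h group, 0 members were called (12 at an unadjusted p under 0.05, limma). With slide as a block the 24 h call counts were 1 higher and 5 lower (Cox8b, Sdha, Sdhd, Atp5c1, Atp5sl, and Ndufaf4 higher), against 14.2% of all genes, and the members' median was -0.08, equal to that of all genes to 2 decimals.

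**Figure D4:**
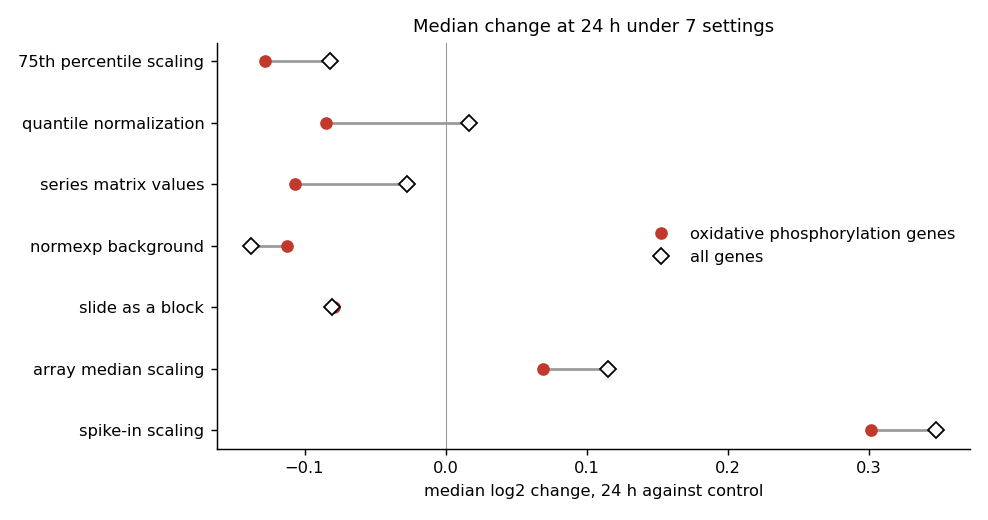
Median log2 change at 24 h against control of the members (circles) and of all genes tested (diamonds) under 7 settings. The members' median ran from -0.13 with the 75th percentile to 0.30 with spike-in scaling, and lay below that of all genes except with normexp and with slide as a block.

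Genes around the respiratory chain were taken from lists of known function, and their counts at 24 h are read beside the 16% of all genes called higher and 31.9% called lower. These counts depend on the scaling, which moves the median of all genes as given above. Of 23 tested enzymes and kinases of the citric acid cycle 2 were higher and 16 lower at 24 h, with a median of -0.21; the counts were 4 and 4 with array medians, 3 and 0 with spike-in scaling and 0 and 4 with slide as a block. Pdk2 and Pdk1, kinases that switch off pyruvate dehydrogenase, were lower by 0.54 and 0.51. Among 19 regulators of mitochondrial biogenesis 3 were higher and 6 lower (median -0.07). The counts were 10 and 3 with array medians, 9 and 0 with spike-in scaling and 2 and 3 with slide as a block. The coactivators Ppargc1a (-0.79 ± 0.06, adjusted p = 2.86e-06) and Ppargc1b (-0.61 ± 0.08) led that list, and Ppargc1a was 0.30 lower already at 2 h (adjusted p = 0.0103) and 6 h. Among 22 carriers and coupling proteins of the inner membrane 1 was higher and 11 lower. The counts were 4 and 5 with array medians, 4 and 0 with spike-in scaling and 1 and 4 with slide as a block. In that list the 2 creatine kinases of mitochondria went in opposite directions, with Ckmt1 at 0.93 and the sarcomeric Ckmt2 at -0.75.

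Of 15 assembly factors for complex I 3 were higher and 3 lower (median 0.01), with Nubpl, which delivers iron-sulphur clusters, at -0.57 and Ndufaf4 as above. This list shares genes with the members. Ndufaf1 and Ndufaf4 are among its higher genes and Dmac2 (Atp5sl) is among its lower ones. Of 32 for complexes II to V 3 were higher and 9 lower (median -0.02), with the complex IV factors Coa7 at 0.47 and Cox15 at -0.46. Of 19 hypoxia and glycolysis genes 4 were higher and 5 lower (median -0.00), with the insulin-dependent glucose transporter Slc2a4 at -0.68 and the muscle phosphofructokinase Pfkm at -0.63. The lower genes include Cox4i2, which is also counted above in complex IV. With array medians these 3 lists had 10, 18 and 11 genes higher and 2, 3 and 3 lower in the same order, and with spike-in scaling 8, 15 and 10 higher and 0, 1 and 0 lower. With slide as a block they had 1, 0 and 2 higher and 2, 1 and 3 lower.

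Marker genes of the cell types in such cultures moved at 24 h as well, on a scale where 31.9% of all genes were called lower and 16% higher. The summed level of 15 cardiomyocyte markers, in multiples of the array's 75th percentile, was 1028 to 1113 at 24 h, against 1188 to 1258 in control cultures, with 10 markers lower and 2 higher (6 and 2 with array medians, 0 and 2 with spike-in scaling, 1 and 1 with slide as a block). The sum of 10 fibroblast markers was 142 to 161, against 192 to 205 (9 lower), that of 8 endothelial markers 2.30 to 2.63, against 3.15 to 3.35 (6 lower, 1 higher), and that of 8 smooth muscle and pericyte markers 30.0 to 31.7, against 35.9 to 36.1 (5 lower, 1 higher). With array medians these 3 lists had 3, 4 and 4 genes lower and 1, 1 and 2 higher in the same order. With spike-in scaling they had 0, 0 and 1 lower and 1, 1 and 3 higher. With slide as a block 5, 4 and 3 were lower and 0, 1 and 0 higher. For 8 of 10 macrophage and leukocyte markers above background the sum was 5.70 to 6.62, against 15.9 to 16.1 (8 lower), with Cd163 and Mrc1 not above background. The lower count of these 8 was 7 with array medians and 6 each with spike-in scaling and slide as a block. The part of these cell types in the changes of the respiratory chain was not tested, and in such bulk RNA fewer cells of a type and less RNA per cell cannot be told apart.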

How the data were processed

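Total RNA of 12 cultures was labelled with Cy3 and read on Agilent arrays. The deposited scanner files hold, per the file headers, the processed signal as intensity on a linear scale, background-subtracted and not scaled between arrays, the mean and local background intensity, and spot flags; the headers name Agilent Feature Extraction 11.0.1.1 and the submitters' processing notes 10.7.3.1. Flags are other values of 0 or 1, per the file headers. A value table, deposited as the series matrix, gives intensity for 28902 probes; its scaling is unstated, and it served as an alternative. Probe positions in the files refer to build rn4.

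Spots marked as outliers (224 to 359 per array) were left out, spots of a probe were averaged, and each array's 75th percentile of log2 signal was subtracted. Probes well above background on all 3 arrays of a group (18997 of 30367) were kept, and the brightest probe stood for a gene. Genes were named by accession, symbol or synonym in RefSeq, otherwise by the file. A means model over all 12 arrays was fitted with limma 3.58.1 (R 4.3.3, statmod 1.5.0, jsonlite 2.0.0) and tested on simulated data. Motifs and exact permutation tests used Python 3.11.15 with scipy 1.17.1 and pandas 2.3.3, and figures matplotlib 3.10.9. Errors on changes are model standard errors. All tests were two-sided.

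Alternatives were normexp with an offset of 50, quantile, array median and spike-in scaling (242 spots), the series matrix, other probe filters and probe averaging, slide and replicate blocks, slides alone, a trended prior, the 2 groups alone, and leaving out each array. The members and gene lists were chosen with earlier results of these data known. Named genes are fixed catalytic or paired-isoform subunits, and the 2 largest non-overlapping calls at 24 h per complex (I, III, IV, V). Named as well are the 2 largest calls at 2 h and 6 h. So are the proteins that match by name but are no subunits, and up to 2 called genes per further list. Other genes named were chosen after their values were seen. The NRF1 core motif was shortened after its shares had been seen.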

Additional observations from a re-analysis of the deposited data

Results flagged for a closer look

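For 17 of 25 named members the change differed between 2 stretch times by limma's test of that difference, adjusted over all genes. Of all genes 48.3% were called between 2 h and 24 h, 24.9% between 6 h and 24 h and 10.6% between 2 h and 6 h. Some of these members were named for their large change at 24 h against control, and the same 24 h arrays enter here. For those members the differences are descriptions and no separate support. The controls enter these contrasts only through the estimate of the spread, and 24 h lies on another slide than 2 h. From 6 h to 24 h the difference was -0.47 for Cox8b, -0.40 for Cox6b2, -0.37 for Atp5b, -0.28 for Atp5c1, -0.28 for Cox8a, -0.27 for Ndufs1, -0.26 for Sdha, -0.24 for Uqcrc2, -0.22 for Atp5a1, -0.20 for Uqcrfs1 and -0.16 for Ndufa9. From 2 h to 24 h it was -0.68 for Cox6b2, -0.60 for Cox8b, -0.50 for Atp5b, -0.40 for Cox8a, -0.39 for Atp5c1, -0.39 for Ndufa9, -0.37 for Sdha, -0.35 for Cox6a2, -0.33 for Uqcrc2, -0.33 for Uqcrfs1, -0.32 for Atp5a1, -0.30 for Uqcrc1, -0.29 for Cox4i2, -0.27 for Ndufs1, -0.22 for Cox4i1 and -0.18 for Sdhb, and 0.32 for Ndufaf4. For Ndufa9 the difference from 2 h to 6 h was -0.23. Sdhb and Cox4i1 appear here although neither was called at 24 h against control. Over all members the calls between 2 h and 24 h fell from 53 to 10 with slide as a block and to 3 with spike-in scaling.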

How the results depend on the processing

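Numbers of members called under other settings were as follows. At 2 h (1 called) 0 were called with no filter, with only the 2 groups fitted, on slide 1 alone and with spike-in scaling, with 7, 3, 7 and 0 at an unadjusted p under 0.05 by limma, and 0 to 1 without single arrays. At 6 h (4) array medians gave 7 and spike-in scaling 63, and single arrays left out gave 3 to 6. At 24 h (37) array medians gave 28 (22 higher, 6 lower), spike-in scaling 10, all higher, and slide as a block 6, while single arrays left out gave 30 to 44. For 6 h against 2 h (1) array medians gave 4 and quantile normalization 3, mostly higher, the trended prior 5, probes above background on all 12 arrays, the series matrix and the random slide block 2 each, and the 2 groups alone, slide 1 alone and spike-in scaling 0 (10, 8 and 9 unadjusted), with 1 to 4 without single arrays. For 24 h against 6 h (24) array medians gave 11, slide as a block 3, slide 2 alone and spike-in scaling 0 (12 and 4 unadjusted), and single arrays left out 16 to 32. For 24 h against 2 h (53) array medians gave 28, slide as a block 10 and spike-in scaling 3, and single arrays left out 37 to 66. The median change at 2 h was 0.21 with spike-in scaling and 0.02 to 0.10 without single arrays. At 6 h it was 0.10 with array medians, 0.46 with spike-in scaling, -5e-04 without a filter and -0.0095 to 0.02 without single arrays. At 24 h it was 0.0687 with array medians, 0.30 with spike-in scaling, -0.0851 with quantile normalization, -0.0789 with slide as a block and -0.14 to -0.11 without single arrays. Array median and spike-in scaling shift all genes of an array alike; for the other settings the cause was not tested. Spike-in scaling turned 13 named changes that were called lower at 24 h positive, Sdha 0.0502, Uqcrc1 0.20, Atp5a1 0.17, Atp5b 0.0096, Ndufs1 0.17, Cox4i2 0.17, Cox6a2 0.12, Cox8a 0.11, Ndufa9 0.15, Uqcrc2 0.13, Uqcrfs1 0.17, Atp5c1 0.0786 and Atp5s 0.13, as well as the uncalled Cox4i1, Sdhb, Cyc1 and Cox7a2 (0.27 to 0.33). At 6 h all 25 named changes were positive with it (0.16 to 0.77), among them Cyc1 0.45 and Cox4i1 0.43, called only there, and Atp5s 0.16, called lower with the 75th percentile. Cox6a1 at 24 h became 0.20 with array medians and 0.43 with spike-in scaling. Arrays with the same replicate number did not deviate together (18 pairs, r -0.11 to 0.10), so the number does not pair them; with it as a block 36 members were called at 24 h, 4 higher and 32 lower. Only 3 arrays a group and the tie of both slides by 1 group limit the 24 h results.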
